A study of Homo sapiens with 21 samples.

Results

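Expression of 10 genes of Polycomb silencing and of DNA methylation upkeep was followed across all groups of the study: EZH2, EZH1, SUZ12, EED, DNMT1, DNMT3A, DNMT3B, UHRF1, HELLS and ATAD2. They were taken by gene symbol, and 10 of the 16383 genes in the deposited table matched. The genes were chosen with earlier results of these data known. Their counts beside the share of all genes are therefore descriptions and no independent support. All 10 passed the filter on low values that left 11579 genes for testing. The cells were IMR90, fibroblasts from human lung, and each of 7 groups had 3 RNA libraries. The proliferating group received no ionising radiation and no siRNA. The other 6 groups were made senescent by irradiation, given 5 nM siRNA on day 4 and again on day 7 after it, and collected on day 10. They received non-targeting siRNA 3 (NT3), non-targeting siRNA 4 (NT4), or siRNA to CCND1, to CDK4, to CDK6, or to CDK4 and CDK6 together (dual knockdown). Irradiation and transfection cannot be told apart in any comparison with proliferating cells. Each target has 1 named siRNA in the labels, which do not say that the libraries of a group came from separate cultures, so p-values measure the spread between these libraries, which may be technical.

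Polycomb repressive complex 2 (PRC2) places methyl groups on lysine 27 of histone H3, a mark of silenced genes. EZH2 or its paralog EZH1 is the catalytic subunit, and SUZ12 and EED are core subunits that the enzyme needs. In DNA methylation, DNMT1 copies the mark onto the new strand after replication, UHRF1 reads hemimethylated DNA and brings DNMT1 to it, and HELLS is a chromatin remodeller needed for methylation of repeats. DNMT3A and DNMT3B add methyl groups to unmethylated DNA. ATAD2 is an ATPase with a bromodomain that binds acetylated histones at replicating chromatin. Cyclin D1, the product of CCND1, activates CDK4 and CDK6, which phosphorylate the retinoblastoma protein and so release E2F transcription factors. EZH2, UHRF1, DNMT1, HELLS and ATAD2 are textbook examples of genes that E2F factors bind in dividing cells.

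Promoter sequence is shown first for 5 genes: EZH2, UHRF1, HELLS and DNMT1, which fell after irradiation, and EZH1, which rose. Each stretch runs from 150 bases before the first RefSeq start site listed for the gene to base 19, with the start site counted as base 0. It is given in GRCh38.p14 and 5′ to 3′ on the gene's own strand. EZH2 and UHRF1 have further start sites that are not printed. Capitals mark 4 E2F-type words, TTTGGCGC, TTTCGCGC, TTTCCCGC and TTTGCCGC, searched on both strands. The stretches lie at chr7:148884272-148884441 (minus strand), chr19:4909351-4909520 (plus), chr10:94545638-94545807 (plus), chr19:10194934-10195103 (minus) and chr17:42745021-42745190 (minus).
EZH2: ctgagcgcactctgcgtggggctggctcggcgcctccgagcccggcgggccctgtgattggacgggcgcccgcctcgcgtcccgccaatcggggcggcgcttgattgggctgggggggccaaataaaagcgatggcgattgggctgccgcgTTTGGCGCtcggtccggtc
UHRF1: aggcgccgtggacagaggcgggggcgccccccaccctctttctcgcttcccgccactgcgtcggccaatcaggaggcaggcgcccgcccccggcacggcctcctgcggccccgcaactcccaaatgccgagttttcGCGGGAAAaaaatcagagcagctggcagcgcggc
HELLS: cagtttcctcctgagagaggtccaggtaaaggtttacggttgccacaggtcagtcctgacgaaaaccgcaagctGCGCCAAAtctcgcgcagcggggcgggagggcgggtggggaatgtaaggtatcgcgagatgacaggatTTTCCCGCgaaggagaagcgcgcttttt
DNMT1: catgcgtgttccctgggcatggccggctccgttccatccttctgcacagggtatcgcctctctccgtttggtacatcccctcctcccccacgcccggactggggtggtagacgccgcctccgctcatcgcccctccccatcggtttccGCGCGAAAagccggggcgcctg
EZH1: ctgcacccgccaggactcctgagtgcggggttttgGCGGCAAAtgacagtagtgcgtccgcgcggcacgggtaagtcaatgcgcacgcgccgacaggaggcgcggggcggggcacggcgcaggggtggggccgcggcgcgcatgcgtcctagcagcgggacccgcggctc

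In the full RefSeq windows of 300 bases, 250 before the start site and 50 from it on, 9 of the 10 genes had an entry, with 17 windows between them. An E2F-type word was present in 7 of these windows, belonging to 6 genes: EZH2, EZH1, SUZ12, DNMT1, UHRF1 and HELLS. Among all 35116 windows of this length, 3.31% held one. The word began at base 1 in the first EZH2 window, at base -2 in DNMT1, at base -14 in the first UHRF1 window and at base -160 in the second, at bases -76 and -8 in HELLS, at base -189 in SUZ12 and at base -115 in EZH1. The first EZH2 window also held 4 copies of CCAAT, a word present in 34.6% of all windows, and none of them overlapped its E2F-type word. The second EZH2 window and the third UHRF1 window held neither an E2F-type word nor CCAAT. EED, DNMT3A and DNMT3B had no E2F-type match, which says only that these letters are not in those windows. EZH1, whose window holds a word, moved the other way from the 5 other genes with one, as the values that follow show. A match is a description of the sequence and does not show a binding site.

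Between 12892442 and 21822152 reads per library fell in the table's genes. All 8 fibroblast markers were present, with gene means of at least 2407. Of 8 markers of other cell types, 3 stayed below a normalised read count of 10 in every library, and the summed level of the list, 671 to 1639, was almost all CD68 (group means 668 to 1523); PTPRC, CDH1, CDH5 and KRT5 had group means of at most 6.53. Each siRNA lowered its target: CCND1 averaged 4633 in CCND1 knockdown against 32092 in NT3 and 46302 in NT4, CDK4 averaged 108.1 in CDK4 knockdown against 1219 and 1276, and CDK6 averaged 773 in CDK6 knockdown against 5069 and 4342. NT3 replicate 3 stood farthest from its group mean, with an SD of log2 deviations of 0.344 against 0.193 to 0.256 for the other 17 irradiated libraries, and values without it are given beside several of the results.

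Senescent control cells held less RNA of 9 of the 10 genes than proliferating cells, and more of EZH1. The falls ran from UHRF1, left at 13.6% of its proliferating mean over the 6 NT3 and NT4 libraries, through HELLS (18.2%), EZH2 (18.7%), ATAD2 (26.2%), DNMT1 (32.6%), DNMT3B (39.4%) and DNMT3A (51.2%) to SUZ12 (62.4%) and EED (62.4%). EZH1 stood at 143%. All 10 passed the limma threshold, an adjusted p under 0.05, in a comparison where 68.6% of all genes tested passed it, 36.1% lower and 32.6% higher. In all 10 the libraries of the arms did not overlap, against 54.1% of all genes. The median log2 fold change was -1.48 over the 10 genes and -0.03 over all genes tested. Centring every library on its median would raise log2 fold changes in this comparison by 0.11, so that the falls become smaller and the EZH1 rise larger (0.63, adjusted p = 1.32e-06); all 10 genes still passed. In RNA from whole cultures, fewer cells that hold a transcript and less RNA per cell cannot be told apart. All 30 of 30 S phase reference genes, a list of replication factors such as MCM2 and PCNA that holds none of the 10 genes, also fell, with a median of -2.18; its part in the changes of the 10 genes was not tested.

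**Figure D1:**
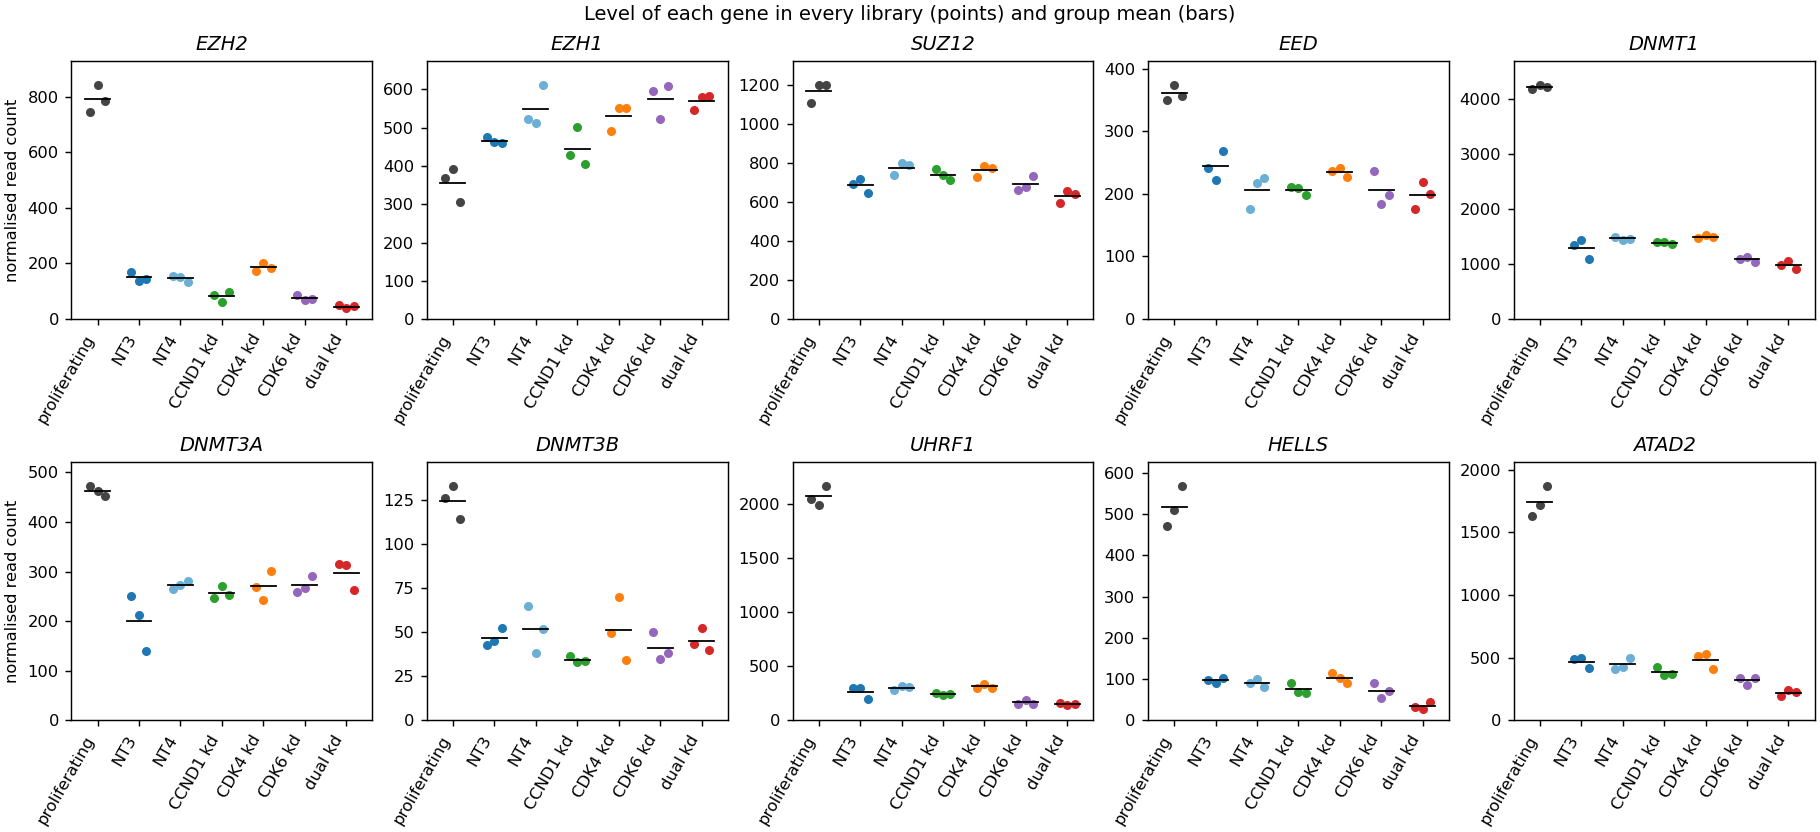
Normalised read count (vertical axis, from 0, a separate scale for each gene) in each of 21 libraries for the 10 genes. Points are libraries, coloured by group, and bars are group means of 3 libraries; the proliferating points lie above all irradiated points in 9 panels and below them in the EZH1 panel.

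EZH2 (ENSG00000106462, chr7:148807383-148884291) was measured at a normalised read count, that is reads divided by a factor for library size, of 744, 844 and 784 in proliferating cells. It was at 169, 138 and 143 in NT3 and 155, 149.9 and 134 in NT4. The 9 libraries split without overlap, and every control library lay far below the lowest proliferating library (log2 fold change -2.41 with SE 0.13, limma adjusted p = 4.11e-13). EZH1 (ENSG00000108799, chr17:42700275-42745040) was measured at 368, 392 and 305 in proliferating cells, 474, 463 and 459.9 in NT3 and 522, 511 and 613 in NT4. Every control library of EZH1 was above every proliferating library (log2 fold change 0.52 with SE 0.09, limma adjusted p = 1.65e-05). The paralogs moved in opposite directions between the same libraries.

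Because counts grow with transcript length, EZH2 and EZH1 were set beside each other per kilobase of the GENCODE canonical transcript (2654 and 4633 bases). On this scale the ratio of the EZH2 level to the EZH1 level was 3.53, 3.76 and 4.49 in proliferating libraries, 0.623, 0.521 and 0.544 in NT3 and 0.517, 0.512 and 0.381 in NT4. It was 0.355, 0.215 and 0.424 in CCND1 knockdown, 0.610, 0.642 and 0.577 in CDK4 knockdown, 0.254, 0.230 and 0.212 in CDK6 knockdown and 0.162, 0.115 and 0.138 in dual knockdown. EZH2 was the more abundant of the pair in proliferating libraries alone, and EZH1 in all 18 irradiated libraries. The order of groups does not depend on the length used, but the level of the ratio does: with the summed length of all annotated exons (10774 and 6988 bases) the mean ratio was 1.46 in proliferating cells and 0.0515 in dual knockdown, and the same libraries lay above 1. The ratio is a description with no test of its own.

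**Figure D2:**
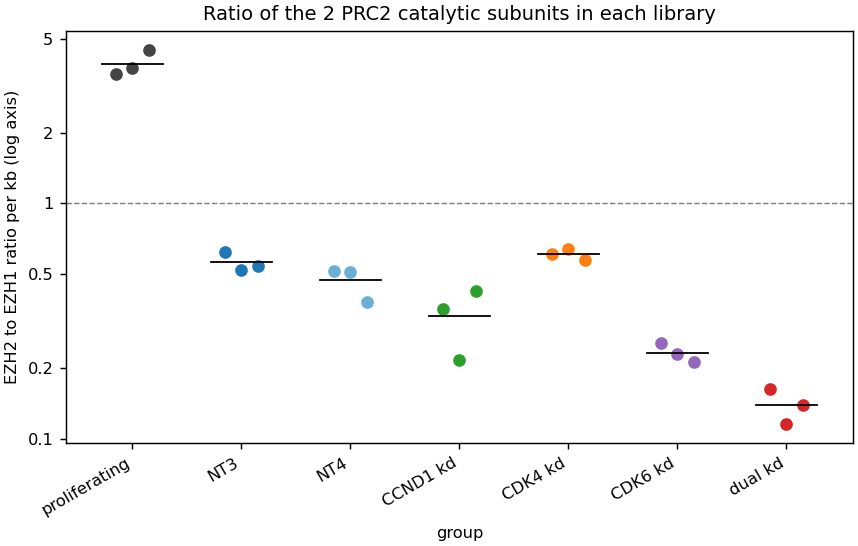
Ratio of the EZH2 level to the EZH1 level per kilobase of canonical transcript (log axis) in each library, by group. Points are libraries, bars are group means and the dashed line marks equal levels; the 3 proliferating libraries sit between 3.53 and 4.49 and every irradiated library sits below 1, down to 0.115 in dual knockdown.

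The core subunits fell less than EZH2. SUZ12 (ENSG00000178691, chr17:31937007-32001038) was at 1109, 1204 and 1203 in proliferating cells, 691, 718 and 649 in NT3 and 740.1, 799 and 792 in NT4 (log2 fold change -0.68 with SE 0.06, limma adjusted p = 5.92e-10). EED (ENSG00000074266, chr11:86244753-86287615) was at 350.2, 375 and 356, 241, 223 and 268 and 176, 217 and 225 in the same groups (log2 fold change -0.69 with SE 0.10, limma adjusted p = 1.78e-06). Neither gene's proliferating libraries overlapped its control libraries. Reads of SUZ12 can be shared with its near-identical pseudogene copy, and how the authors assigned such reads is not given in the sources used here, so its level is uncertain. EED overlaps a long noncoding RNA on the opposite strand by 221 exon bases, and the strand setting of the counting is not given either.

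Of 10 accessory subunits of PRC2, 8 were in the table and 7 were tested: 6 fell and 1 rose in senescent controls, where 36.1% of all genes were lower and 32.6% higher, with a median log2 fold change of -0.59. PHF19, a Polycomb-like protein that steers PRC2 to CpG islands, had the largest fall of the list (log2 fold change -1.74 with SE 0.07, limma adjusted p = 2.08e-15). RBBP7, a histone chaperone found in PRC2, fell by 1.02 on the log2 scale (SE 0.07, limma adjusted p = 1.85e-11), while MTF2, another Polycomb-like protein, fell by 0.72 (SE 0.08, adjusted p = 1.51e-07). The subunits of PRC1, the complex that places ubiquitin on histone H2A, moved in both directions: of 21 listed, 20 were tested, and 10 fell, 5 rose and 5 did not pass. PHC1, a scaffold subunit, fell (-1.28, SE 0.15, adjusted p = 9.28e-08), as did KDM2B, which binds CpG islands (-0.95, SE 0.07, adjusted p = 1.05e-10), and the ubiquitin ligase RNF2 (-0.76, SE 0.07, adjusted p = 8.08e-09). Of 5 listed enzymes or cofactors that remove either mark, 4 were tested, and the H3K27 demethylases KDM6B (0.66, SE 0.11, adjusted p = 1.32e-05) and KDM6A (0.38, SE 0.09, adjusted p = 0.000457) rose, while ASXL2, a partner of the H2A deubiquitinase BAP1, fell (-0.49, SE 0.14, adjusted p = 0.0029), as did BAP1 itself (-0.24, adjusted p = 0.000101; a gene outside the naming rule).

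Among the genes of methylation upkeep, UHRF1 (ENSG00000276043, chr19:4903080-4962154) had the largest fall of the 10. It was at 2047, 1992 and 2167 in proliferating cells, 301, 299 and 194 in NT3 and 276, 317 and 302 in NT4 (log2 fold change -2.89 with SE 0.11, limma adjusted p = 1.59e-15). NT3 replicate 3 was the lowest control library, and without it the log2 fold change was -2.79, adjusted p = 1.49e-20. The methyltransferase DNMT1 (ENSG00000130816, chr19:10133346-10194953) was at 4184, 4257 and 4219.8 in proliferating cells, 1340.2, 1431 and 1092 in NT3 and 1495, 1443 and 1456 in NT4 (log2 fold change -1.62 with SE 0.07, limma adjusted p = 3.31e-15). HELLS (ENSG00000119969, chr10:94545788-94613905) was at 472, 511 and 569.6, 98.6, 90.8 and 103.2 and 91.3, 100.2 and 80.8 (log2 fold change -2.45 with SE 0.16, limma adjusted p = 1.51e-11). For each of the 3 genes the control libraries lay far below the proliferating ones, with no overlap. DNMT1 shares 83 exon bases with S1PR2 on its own strand and HELLS shares 438 with a long noncoding RNA on its own strand, so reads there cannot be assigned with certainty.

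The methyltransferases that act on unmethylated DNA also fell. DNMT3A (ENSG00000119772, chr2:25227874-25342590) was at 473, 462 and 452 in proliferating cells, 250.2, 211 and 139.6 in NT3 and 265, 272 and 281 in NT4 (log2 fold change -1.001 with SE 0.12, limma adjusted p = 2.45e-07). The 3 NT3 libraries spread widely, with replicate 3 lowest, and the fall without it was -0.88, adjusted p = 6.95e-10. DNMT3B (ENSG00000088305, chr20:32762385-32809356) was at 126, 133 and 114, 42.6, 44.7 and 52.2 and 64.5, 38.0 and 51.9 (log2 fold change -1.34 with SE 0.19, limma adjusted p = 2.77e-06). Its irradiated libraries rest on 31 to 69 reads each, which limits what can be seen between irradiated groups. ATAD2 (ENSG00000156802) was at 1633, 1715 and 1873 in proliferating cells, 485, 494 and 419.9 in NT3 and 408, 428 and 499 in NT4 (log2 fold change -1.93 with SE 0.10, limma adjusted p = 1.45e-13). It overlaps a processed pseudogene on the opposite strand by 433 exon bases.

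Of 18 listed cofactors, erasers and readers of DNA methylation, 16 were in the table and 15 were tested: 10 fell in senescent controls, none rose and 5 did not pass, where 36.1% of all genes were lower, with a median of -0.40. CDCA7, the activator of HELLS, fell from a mean of 516 in proliferating cells to 49.1 in NT3 and 46.1 in NT4 (log2 fold change -3.41 with SE 0.17, limma adjusted p = 1.15e-13). Its fall was larger in size than that of any of the 10 genes, though the difference was not tested. CDCA7L, a paralog of CDCA7, fell by 1.61 (SE 0.09, limma adjusted p = 1.01e-12), and TET1, an enzyme that oxidises methylated cytosine, fell by 2.17 (SE 0.20, adjusted p = 2.59e-09). The paralogs of UHRF1 and ATAD2 had smaller log2 fold changes: UHRF2 fell by 0.40 (SE 0.08, adjusted p = 0.000171) and ATAD2B by 0.51 (SE 0.11, adjusted p = 0.000461), against -2.89 for UHRF1 and -1.93 for ATAD2. Of 12 germline genes that promoter methylation silences in body cells, all were in the table, and 11 were too low to test; the tested one, SYCP3, did not pass (log2 fold change 0.27, limma adjusted p = 0.724).

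**Figure D3:**
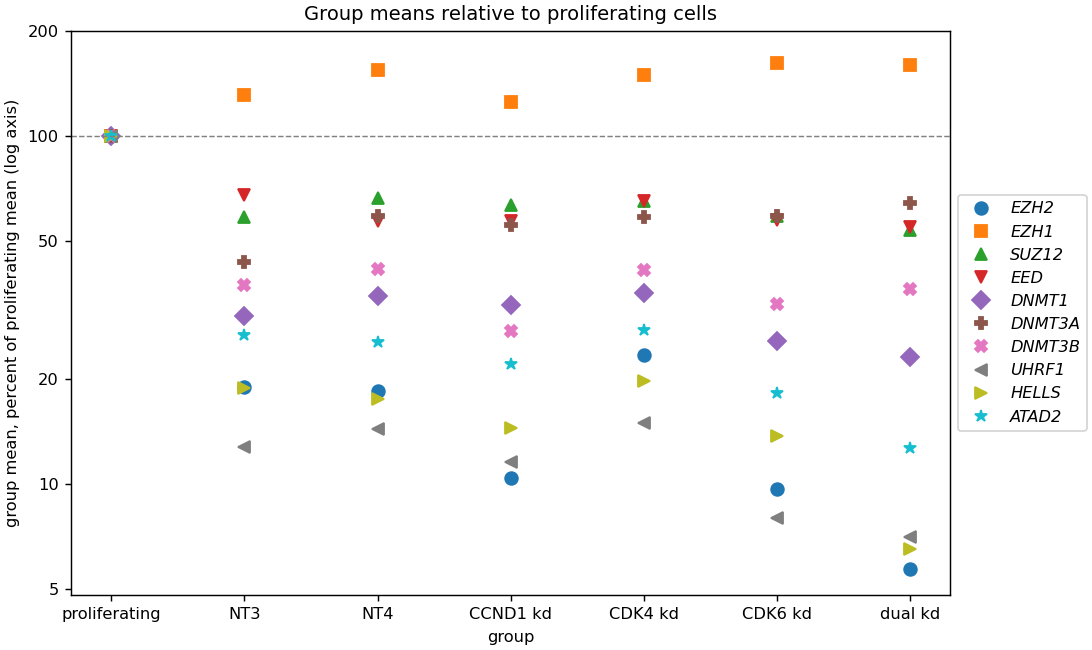
Group mean of each gene as a percentage of its proliferating mean (log axis) in the 7 groups, 3 libraries each. Symbols are genes and the dashed line is the proliferating level; EZH1 lies above 100% in every irradiated group, and EZH2, HELLS and UHRF1 reach 5.69%, 6.52% and 7.06% in dual knockdown.

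The knockdowns ask which genes change further when cyclin D1 or its kinase partners are depleted in senescent cells. Each was compared with the mean of the same 6 NT3 and NT4 libraries, so the 4 comparisons share their controls. The share of all genes whose libraries do not overlap is not given for comparisons of knockdowns. Statements there that libraries lie apart only describe the values. In CCND1 knockdown EZH2 fell further, to 87.2, 61.9 and 98.1, all below the 6 control libraries (log2 fold change -0.86 with SE 0.13, limma adjusted p = 3.7e-05). It was 1 of the 10 genes past the threshold, where 31% of all genes passed and 14.4% were lower. DNMT3B was at 36.2, 33.1 and 33.4, also below every control library, but did not pass (-0.49, SE 0.19, adjusted p = 0.0627). ATAD2 (-0.24, SE 0.10, adjusted p = 0.0659) and UHRF1 (-0.22, SE 0.11, adjusted p = 0.147) did not pass either, though both did without NT3 replicate 3 (-0.28, adjusted p = 0.02, and -0.32, adjusted p = 0.00267), and DNMT3B did without NT4 replicate 2 (-0.59, adjusted p = 0.0273). EZH1 did not pass (-0.19, SE 0.09, adjusted p = 0.105) but did without CCND1 knockdown replicate 2 (-0.28, adjusted p = 0.0387) or with NT4 alone as control (-0.30, adjusted p = 0.0353), and DNMT3A, which did not pass (0.15, SE 0.12, adjusted p = 0.368), did as higher with NT3 alone (0.39, adjusted p = 0.0325). DNMT1 was at 1401, 1394 and 1357, within the range of its controls (0.02, SE 0.07, adjusted p = 0.882).

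In CDK4 knockdown none of the 10 genes passed the limma threshold, where 16% of all genes did, and 1 of them, EZH2, had an unadjusted p under 0.05. EZH2 was at 171, 203 and 183, above all 6 control libraries (log2 fold change 0.32 with SE 0.13, limma adjusted p = 0.0989). Both count models, edgeR and DESeq2 on the recovered reads, called EZH2 alone among the 10 genes (0.33, adjusted p = 0.0432 and 0.33, adjusted p = 0.0307). With both controls and all libraries, all 10 log2 fold changes were above 0, from 0.03 for DNMT3B to 0.32 for EZH2. Their median was 0.10 against 0.00 over all genes tested. Across the alternatives run, the lowest values fell below 0 for EZH1 (-0.04), SUZ12 (-0.02), EED (-0.05), DNMT3A (-0.02) and DNMT3B (-0.23). For the other genes they stayed above 0. The shared direction therefore depends on the controls and libraries used. With NT3 alone as control DNMT1 (0.23, adjusted p = 0.0313) and DNMT3A (0.47, adjusted p = 0.019) passed as higher, where 25.6% of all genes passed.

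In CDK6 knockdown 5 of the 10 genes fell and none rose, where 41.9% of all genes passed and 20.8% were lower. EZH2 was at 86.5, 69.0 and 73.8 (log2 fold change -0.95 with SE 0.13, limma adjusted p = 5.47e-06), all below the control libraries. UHRF1 was at 154, 190.1 and 151 (log2 fold change -0.76 with SE 0.11, limma adjusted p = 1.24e-05), also below every control library, the lowest of which was NT3 replicate 3. ATAD2 was at 338, 280.5 and 339 (log2 fold change -0.51 with SE 0.10, limma adjusted p = 0.000244) and did not overlap its controls. DNMT1 was at 1089, 1135 and 1032 (log2 fold change -0.34 with SE 0.07, limma adjusted p = 0.000285), where NT3 replicate 3 fell among the knockdown libraries. HELLS was at 90.6, 53.1 and 69.9, which reached into the control range, and its call was not stable (log2 fold change -0.43 with SE 0.16, limma adjusted p = 0.0405). Without CDK6 knockdown replicate 2, the lowest of the 3, HELLS no longer passed (-0.23, adjusted p = 0.311), and leaving out CDK6 knockdown replicate 3, NT3 replicate 1, NT4 replicate 1 or NT4 replicate 2 also ended the call (adjusted p = 0.0946, 0.0567, 0.0599 and 0.0792). EZH1 (0.19, SE 0.09, adjusted p = 0.0856) and DNMT3A (0.24, SE 0.12, adjusted p = 0.124) did not pass, but EZH1 did without NT4 replicate 3 (0.23, adjusted p = 0.0396) or CDK6 knockdown replicate 2 (0.25, adjusted p = 0.0473), and DNMT3A did without NT3 replicate 1 (0.33, adjusted p = 0.0193). Without NT3 replicate 3 the DNMT3A value was smaller (0.12, adjusted p = 0.262). With NT3 alone as control EZH1 (0.30, adjusted p = 0.0163) and DNMT3A (0.48, adjusted p = 0.00839) passed as higher, where 46.3% of all genes passed, and with NT4 alone HELLS did not pass (-0.37, adjusted p = 0.146).

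Dual knockdown had the most changes: 6 of the 10 genes fell and 1 rose, where 44% of all genes passed, 21.5% lower and 22.5% higher. EZH2 was at 50.8, 38.2 and 46.0 (log2 fold change -1.70 with SE 0.13, limma adjusted p = 8.72e-10), on 35 to 46 reads per library. HELLS was at 30.9, 26.2 and 44.05 (log2 fold change -1.48 with SE 0.16, limma adjusted p = 2.15e-07), on 24 to 44 reads. Both genes lay below every other library of the study. ATAD2 was at 194, 242 and 225 (log2 fold change -1.04 with SE 0.10, limma adjusted p = 2.04e-08) and was likewise below all other libraries. UHRF1 was at 157, 136 and 145 (log2 fold change -0.93 with SE 0.11, limma adjusted p = 6.83e-07), and DNMT1 at 975, 1060.3 and 904 (log2 fold change -0.49 with SE 0.07, limma adjusted p = 3.22e-06). Both were below every control library, and UHRF1 overlapped its CDK6 knockdown libraries. As shares of the proliferating mean, dual knockdown left 5.69% of EZH2, 6.52% of HELLS, 7.06% of UHRF1, 12.7% of ATAD2 and 23.2% of DNMT1.

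SUZ12 fell slightly in dual knockdown, to 595, 655 and 642 (log2 fold change -0.21 with SE 0.06, limma adjusted p = 0.00467), and overlapped the controls; against NT3 alone the fall did not pass (-0.12, adjusted p = 0.139). DNMT3A was the gene that rose, at 316, 312 and 262 (log2 fold change 0.36 with SE 0.12, limma adjusted p = 0.0217). That rise did not pass against NT4 alone (0.12, adjusted p = 0.551), without dual knockdown replicate 1 (0.31, adjusted p = 0.0982) or without replicate 2 (0.32, adjusted p = 0.0872), and without NT3 replicate 3 it was smaller but passed (0.24, adjusted p = 0.0212). EED (-0.18, SE 0.10, adjusted p = 0.139), EZH1 (0.17, SE 0.09, adjusted p = 0.108) and DNMT3B (-0.10, SE 0.19, adjusted p = 0.699) did not pass. Without NT4 replicate 1, EED passed (-0.23, adjusted p = 0.0488), and with NT3 alone as control EED (-0.30, adjusted p = 0.0313) and EZH1 (0.29, adjusted p = 0.022) passed. EZH1 was at 429, 503 and 404 in CCND1 knockdown, 491, 552 and 553 in CDK4 knockdown, 595, 524 and 608 in CDK6 knockdown and 546, 579.8 and 582 in dual knockdown. All 12 of these libraries were above the highest proliferating library of EZH1.

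**Figure D4:**
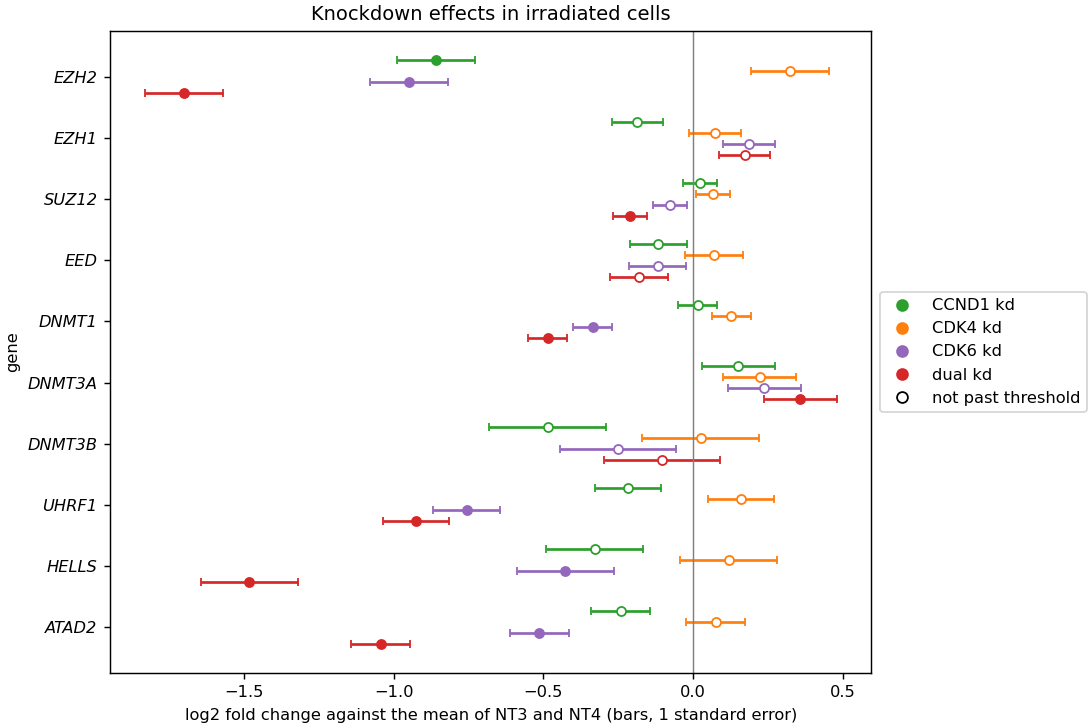
Log2 fold change of each gene in the 4 knockdowns against the mean of the NT3 and NT4 libraries (horizontal axis), with bars of 1 standard error from limma. Filled points passed an adjusted p under 0.05; EZH2 is filled in CCND1, CDK6 and dual knockdown, and no CDK4 knockdown point is filled.

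If the effects of CDK4 and CDK6 knockdown added on the log2 scale, the dual knockdown effect would equal their sum. This takes each target to be lowered as far in dual as in single knockdown, which is not shown here. For EZH2 the sum was -0.62 and the dual effect -1.70, a departure of -1.08 (SE 0.20, limma adjusted p = 0.0015). For HELLS the sum was -0.31 and the dual effect -1.48, a departure of -1.18 (SE 0.25, adjusted p = 0.00533). For ATAD2 the values were -0.44, -1.04 and -0.61 (SE 0.15, adjusted p = 0.0172). These 3 of the 10 genes departed, all towards a lower level, where 6.35% of all genes passed and 3.71% were lower. The ATAD2 call was lost when any of 5 libraries was left out: CDK4 knockdown replicate 1 (-0.56, adjusted p = 0.058) or 2 (-0.54, adjusted p = 0.0642), CDK6 knockdown replicate 1 (-0.56, adjusted p = 0.0513) or 3 (-0.56, adjusted p = 0.0591), or dual knockdown replicate 1 (-0.52, adjusted p = 0.0641). DNMT1 (departure -0.28, adjusted p = 0.105) did not pass with all libraries but did without NT3 replicate 2 (-0.32, adjusted p = 0.0278) or NT3 replicate 3 (-0.22, adjusted p = 0.037). UHRF1 did not pass (-0.33, adjusted p = 0.27), and its dual effect of -0.93 stood beside a CDK6 effect of -0.76. Of the 30 S phase reference genes, 11 departed towards a lower level, with a median of -0.53 over the list; its part in the departures was not tested.

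**Figure D5:**
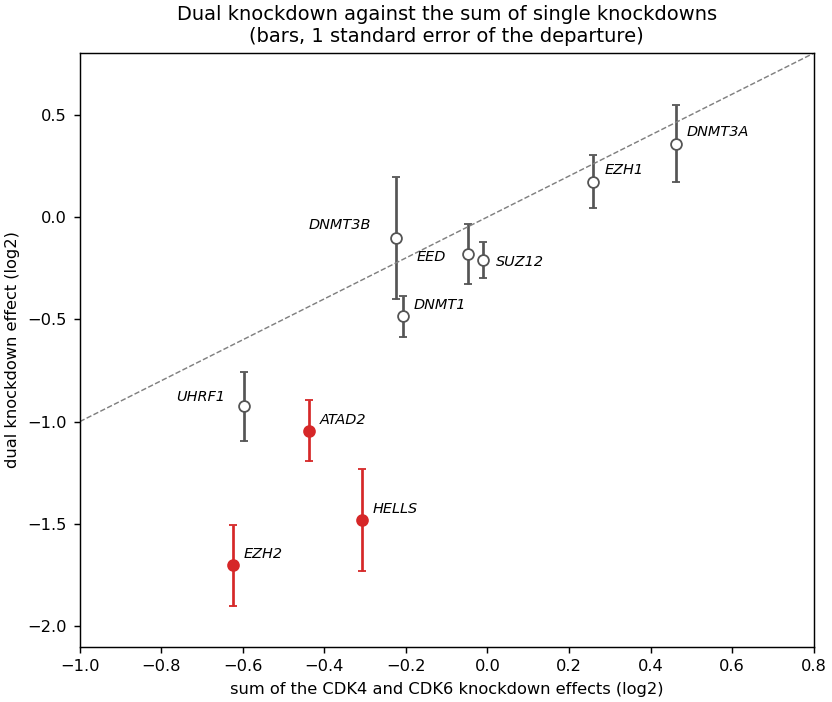
Dual knockdown effect (vertical axis, log2 fold change) against the sum of the CDK4 and CDK6 knockdown effects (horizontal axis, log2) for the 10 genes. Bars are 1 standard error of the departure and the dashed line is where effects add; the filled points, EZH2, HELLS and ATAD2, depart from the line by -1.08, -1.18 and -0.61.

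Direct comparisons of knockdowns ordered the groups gene by gene. Their fold changes use no control libraries, but their SEs and p-values rest on the spread shared by all 21 libraries. CDK6 knockdown was lower than CDK4 knockdown for 5 of the 10 genes and higher for none, where 34.8% of all genes passed and 17.3% were lower. These were EZH2 (-1.27, SE 0.15, adjusted p = 9.04e-07), UHRF1 (-0.92, SE 0.13, adjusted p = 7.89e-06), ATAD2 (-0.59, SE 0.11, adjusted p = 0.000315), HELLS (-0.55, SE 0.19, adjusted p = 0.0281) and DNMT1 (-0.46, SE 0.08, adjusted p = 4.86e-05), all by limma. HELLS lost its call without CDK6 knockdown replicate 2 (-0.35, adjusted p = 0.184), CDK6 knockdown replicate 3 (-0.55, adjusted p = 0.0637), CDK4 knockdown replicate 1 (-0.46, adjusted p = 0.11) or CDK4 knockdown replicate 2 (-0.54, adjusted p = 0.0668). Dual knockdown was lower than CDK6 knockdown for 3 genes, HELLS (-1.06, SE 0.19, adjusted p = 0.000524), EZH2 (-0.75, SE 0.15, adjusted p = 0.00152) and ATAD2 (-0.53, SE 0.11, adjusted p = 0.00271), where 13% of all genes passed and 6.94% were lower. UHRF1 (-0.17, SE 0.13, adjusted p = 0.43) and DNMT1 (-0.15, SE 0.08, adjusted p = 0.209) did not differ past the threshold between dual and CDK6 knockdown.

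CCND1 knockdown was compared with dual knockdown because cyclin D1 is the partner of both kinases. In all, 6 genes were higher in CCND1 knockdown and 1 was lower, where 20.3% of all genes passed, 11.2% higher and 9.12% lower. HELLS (1.15, SE 0.19, adjusted p = 0.000122), EZH2 (0.84, SE 0.15, adjusted p = 0.00031), ATAD2 (0.80, SE 0.11, adjusted p = 2.31e-05), UHRF1 (0.71, SE 0.13, adjusted p = 0.000346) and DNMT1 (0.50, SE 0.08, adjusted p = 4.62e-05) were higher, by limma. SUZ12 was also higher (0.23, SE 0.07, adjusted p = 0.0137), a call lost without CCND1 knockdown replicate 1 (0.20, adjusted p = 0.0672) or dual knockdown replicate 1 (0.19, adjusted p = 0.077). EZH1 was lower (-0.36, SE 0.10, adjusted p = 0.0121), a call lost without CCND1 knockdown replicate 3 (-0.29, adjusted p = 0.0759). EZH2 was past the threshold in CCND1 knockdown against controls, but still stood at 183% of its dual knockdown mean.

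Of the 30 S phase reference genes, 20 fell in CCND1 knockdown (median log2 fold change -0.45), 2 rose in CDK4 knockdown (median 0.11), 29 fell in CDK6 knockdown (median -0.64) and 29 fell in dual knockdown (median -1.07). Of the 10 genes, 1 fell in CCND1 knockdown, none passed in CDK4 knockdown, 5 fell in CDK6 knockdown, and 6 fell and 1 rose in dual knockdown. Over all genes tested, 31% passed in CCND1 knockdown (14.4% lower) and 16% in CDK4 knockdown. In CDK6 knockdown 41.9% of all genes passed (20.8% lower), and in dual knockdown 44% did (21.5% lower, 22.5% higher). RRM2, the ribonucleotide reductase subunit, fell the most in dual knockdown among the S phase genes with a mean of at least 100 in the higher arm (log2 fold change -2.97 with SE 0.10, limma adjusted p = 5.48e-15), followed by TK1, thymidine kinase (-2.54, SE 0.10, adjusted p = 2.5e-14), and TYMS, thymidylate synthase (-2.14, SE 0.08, adjusted p = 1.2e-14). In CCND1 knockdown DNMT1 (0.02) and SUZ12 (0.02) had log2 fold changes near 0. The part of the S phase genes in the changes of the 10 genes was not tested.

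The other Polycomb and methylation genes gave these counts in dual knockdown against controls, where 21.5% of all genes were lower and 22.5% higher; the share of PRC2 accessory and DNA methylation genes that fell is near that background. Of 7 PRC2 accessory genes tested, 2 fell, PHF19 (-0.31, SE 0.07, adjusted p = 0.000801) and the histone chaperone RBBP4 (-0.17, SE 0.05, adjusted p = 0.00741). Of 20 PRC1 genes, 8 fell and 5 rose, among them PHC1, which rose (0.53, SE 0.15, adjusted p = 0.0054), and PCGF1 (-0.45, SE 0.13, adjusted p = 0.00985) and YAF2 (-0.43, SE 0.11, adjusted p = 0.00263), which fell. CBX2, a chromodomain subunit named after its values were seen, fell in senescence (-3.09, limma adjusted p = 3.02e-07) and again in dual knockdown (-1.59, adjusted p = 0.00202), from a level of at most 93.9. KDM6A, which had risen in senescence, fell in dual knockdown (-0.38, SE 0.09, adjusted p = 0.00105), in CDK6 knockdown (-0.44, SE 0.09, adjusted p = 0.00032) and in CCND1 knockdown (-0.32, SE 0.09, adjusted p = 0.00798). KDM6B fell in CCND1 knockdown (-0.52, SE 0.11, adjusted p = 0.000835) and CDK6 knockdown (-0.29, SE 0.11, adjusted p = 0.0328) but not past the threshold in dual knockdown (-0.21, SE 0.11, adjusted p = 0.116).

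Of 15 DNA methylation cofactors, erasers and readers tested, 4 fell and 2 rose in dual knockdown, where 21.5% of all genes were lower and 22.5% higher. CDCA7 fell to a mean of 11.1 (log2 fold change -2.05 with SE 0.17, limma adjusted p = 3.36e-09), and it also fell in CDK6 knockdown (-1.37, SE 0.17, adjusted p = 1.58e-06) and CCND1 knockdown (-0.66, SE 0.17, adjusted p = 0.00546). TDG, the glycosylase that removes oxidised methylcytosine, rose in dual knockdown (0.58, SE 0.07, adjusted p = 5.94e-07) and in CDK4 knockdown (0.58, SE 0.07, adjusted p = 5.06e-06), and fell in CDK6 knockdown (-0.26, SE 0.07, adjusted p = 0.00387). TET1 was near its control level in dual knockdown (0.05, SE 0.20, adjusted p = 0.861). UHRF2 fell in dual knockdown (-0.29, SE 0.08, adjusted p = 0.00602), and ATAD2B did not pass there (0.27, SE 0.11, adjusted p = 0.0599) but rose in CDK4 knockdown (0.39, SE 0.11, adjusted p = 0.0223) and CCND1 knockdown (0.32, SE 0.11, adjusted p = 0.0385). The textbook Polycomb targets CDKN2A and CDKN2B encode inhibitors of CDK4 and CDK6. Whether reads can be shared between them or with other genes was not examined, so each value is uncertain. CDKN2B rose in senescent controls (1.21, SE 0.08, adjusted p = 2.84e-11) and fell in CCND1 knockdown (-0.77), CDK6 knockdown (-1.66) and dual knockdown (-0.77), each past the limma threshold. CDKN2A did not pass in senescent controls (0.14, SE 0.10, adjusted p = 0.241) and fell in CCND1 knockdown (-0.71), CDK6 knockdown (-1.15) and dual knockdown (-0.68), each past the threshold. For both CDKN2A and CDKN2B the fall was smaller in dual than in CDK6 knockdown, and EZH2 had the reverse order. Their values in CDK4 knockdown and between NT3 and NT4 are not given here.

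The 2 non-targeting controls differed from each other at 27.8% of all genes tested, and at 2 of the 10 genes. DNMT3A (log2 fold change 0.48 with SE 0.14, limma adjusted p = 0.014) and SUZ12 (log2 fold change 0.18 with SE 0.07, limma adjusted p = 0.0462) were higher in NT4 than in NT3. Without NT3 replicate 3 neither passed (0.24, adjusted p = 0.0956 for DNMT3A, 0.14, adjusted p = 0.139 for SUZ12). SUZ12 also lost its call without NT3 replicate 1 (0.19, adjusted p = 0.0702), NT4 replicate 2 (0.16, adjusted p = 0.127) or NT4 replicate 3 (0.17, adjusted p = 0.127). DNMT1 (0.19, SE 0.08, adjusted p = 0.0582) and EZH1 (0.23, SE 0.10, adjusted p = 0.0871) did not overlap between the controls, all higher in NT4, but did not pass; DNMT1 did without NT3 replicate 1 (0.23, adjusted p = 0.0472) or NT3 replicate 2 (0.28, adjusted p = 0.00666), and without NT3 replicate 3 its difference was smaller (0.08, adjusted p = 0.344). In all, 4 of the 10 genes did not overlap, where 34.9% of all genes did not. EZH2 (-0.04, SE 0.15, adjusted p = 0.88), HELLS (-0.11, SE 0.19, adjusted p = 0.709), ATAD2 (-0.07, SE 0.11, adjusted p = 0.688) and UHRF1 (0.20, SE 0.13, adjusted p = 0.259), which gave the larger knockdown effects, did not differ past the threshold between the controls; without NT3 replicate 3 the UHRF1 value was -0.0093, adjusted p = 0.963.

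Ordered by group mean, EZH2 ran from proliferating cells through CDK4 knockdown, NT3, NT4, CCND1 knockdown and CDK6 knockdown to dual knockdown, and the libraries of NT3 and NT4, and those of CCND1 and CDK6 knockdown, overlapped. HELLS and ATAD2 had the same order of means; for HELLS only the first and last steps, and for ATAD2 the first and the last 2, were without overlap of neighbouring libraries. UHRF1 ran through CDK4 knockdown, NT4, NT3, CCND1 knockdown, CDK6 knockdown and dual knockdown, with overlap everywhere but below proliferating cells and below CCND1 knockdown. DNMT1 ran through CDK4 knockdown, NT4, CCND1 knockdown, NT3, CDK6 knockdown and dual knockdown, and its irradiated neighbours overlapped except NT4 and CCND1 knockdown. For SUZ12, EED, DNMT3A and DNMT3B all neighbouring irradiated groups overlapped. EZH1 was highest in CDK6 knockdown (576) and dual knockdown (569), which overlapped, and lowest in proliferating cells (355).

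The genes whose 7 group means were most like a member's were named by the smallest root mean square difference of centred log2 means, among 9096 genes with a mean of at least 100. For EZH2 they were TPX2 (0.10), TACC3 (0.11) and BRCA2 (0.14). For UHRF1 they were TMPO (0.10), SYNE2 (0.12) and CHAF1B (0.16), and for DNMT1 they were NDC1 (0.06), CDCA7L (0.08) and FIGNL1 (0.09). For EZH1 they were LRP3 (0.05), CHST3 (0.07) and CTSA (0.07). The nearest of the 10 genes to EZH2 was HELLS (0.26), and to EZH1 it was SUZ12 (0.48). These are descriptions over 7 group means and carry no test.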

How the data were processed

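RNA from 21 libraries was sequenced after poly(A) capture, and the authors deposited 1 table of expression signal, which its header calls normalised counts. Every deposited value was a whole number of reads, within 0.01, divided by 1 factor per library, so 100% of values returned whole reads. The submitters' processing notes name Trimmomatic 0.38.1, HISAT2 2.2.1, featureCounts 2.0.3, FastQC 0.74, MultiQC, DESeq2 2.11.40.8 and hg38/GRCh38. The annotation, the strand setting and the handling of shared reads are not given in the sources used here.

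A gene was kept if 3 or more libraries had a value of 10 or more (11579 of 16383). The log2 of the value plus 1 entered limma 3.58.1 (R 4.3.3) with a mean for each of the 7 groups and a trended empirical Bayes variance. Fold changes are on this log2(value + 1) scale, which understates changes of low genes. Tests were two-sided in 10 comparisons, adjusted by Benjamini-Hochberg over all genes tested in each, with a threshold of 0.05. The code was tested on simulated data.

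The alternatives comprised a pseudocount of 0.1 or 10, testing without the filter or with a minimum mean of 100, median centring and quantile normalisation. Others were edgeR 4.0.16 and DESeq2 1.42.0 on the recovered reads, NT3 or NT4 alone as control, and the compared groups alone. Each library was also left out, only in the comparisons whose groups included it. Table columns carry a library number but no replicate number, so replicate numbers follow column order and are names only.

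The members and gene lists were chosen with earlier results of these data known. Named genes were the 10 members and, from each list, the 3 with the largest absolute log2 fold change among those past the threshold in senescent controls against proliferating cells and with a mean of at least 100 in the higher arm, and the same for dual knockdown. KDM6A, KDM6B, UHRF2, CDCA7, ATAD2B, CDKN2A, CDKN2B and the siRNA targets were added, and the 3 nearest profiles of EZH2, EZH1, UHRF1 and DNMT1. BAP1, CBX2, SYCP3, the markers of other cell types (CD68, PTPRC, CDH1, CDH5, KRT5, EPCAM, PECAM1 and VWF) and the S phase examples MCM2 and PCNA fall outside this rule. Promoters came from RefSeq (GRCh38.p14), and transcript lengths and overlaps from GENCODE.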

Additional observations from a re-analysis of the deposited data

Results flagged for a closer look

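In all, 3 genes departed from additivity of the CDK4 and CDK6 knockdowns in a test of the difference itself, the interaction term of the limma fit. The dual knockdown effect on HELLS departed from the sum of the single effects by -1.18 on the log2 scale, that on EZH2 by -1.08 and that on ATAD2 by -0.61. These were 3 of 10 genes, where 6.35% of all genes tested departed in either direction. The ATAD2 departure lost its call in 6 of the alternatives run, and those of EZH2 and HELLS kept theirs in all of them.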

How the results depend on the processing

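No member result changed direction while called, and of 43 results past the threshold 34 stayed past it in every alternative. Of all 100 member results, 76 stayed on their side of the threshold throughout. For NT4 against NT3, 2 genes passed; median centring gave 1, DESeq2 on the recovered reads gave 1 and 0 passed when only the compared groups were fitted. For CCND1 knockdown, 1 gene passed, against 2 with DESeq2, 2 with NT3 alone and 2 with NT4 alone as control, where 38.2% and 19.3% of all genes passed instead of 31%. For CDK4 knockdown, 0 passed in limma, 1 in edgeR, 1 in DESeq2 and 2 with NT3 alone, where 25.6% of all genes passed instead of 16%. For the dual knockdown against the sum of single knockdowns, 3 passed, and 5 with NT3 alone, where 16.4% of all genes passed instead of 6.35%. Without 1 library at a time, the number past the threshold ranged from 10 to 10 in senescent controls, 0 to 3 between the controls, 1 to 3 in CCND1 knockdown, 0 to 0 in CDK4 knockdown, 4 to 6 in CDK6 knockdown, 6 to 8 in dual knockdown, 2 to 4 for dual knockdown against the sum, 4 to 5 for CDK6 against CDK4, 3 to 3 for dual against CDK6 and 6 to 7 for CCND1 against dual knockdown. Where these counts moved, the cause was not tested. Only libraries of the compared groups were left out, so the effect of other libraries on the shared spread was not tested this way.

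The replicate block of the labels was not run, because the columns carry no replicate number. A block by library number, added after seeing the data, called 3 genes between NT4 and NT3 (DNMT1 added, 0.19, adjusted p = 0.0407) and moved no other call. Libraries of the same numbered set had weakly correlated deviations (r across genes -0.11 to 0.10 over 45 pairs, median 0.04, against a median of -0.02 for other sets), and 13 of 18 libraries correlated best with their own set, a hint from the data and not from the design. With 1 of the 45 pairs above 0.1, the numbers were not taken to pair samples. DNMT3B and, in dual knockdown, HELLS and EZH2 rest on few reads, which limits what could be detected.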
